A study of Mus musculus with 2 samples.

Results

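Immediate early genes are transcribed within minutes of a stimulus, without new protein synthesis, and their RNAs are short-lived. Growth factors, stretch, hypoxia, cytokines and the handling of tissue after death all switch them on, largely through serum response factor with its partners and through CREB. In the lung they are known from airway and vascular smooth muscle under stretch, from endothelium and from inflammatory cells, and in dissociated tissue they are a familiar sign of handling. The genes described here are 10 of the 32285 genes in the features of 2 spatial transcriptomics sections, chosen by symbol: Fos, Fosb, Jun, Junb, Egr1, Atf3, Dusp1, Ier2, Zfp36 and Nr4a1.

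The sections were mouse lung, 1 from an untreated control animal and 1 from an animal whose lung carried metastases after 4T1 cells, a mouse mammary carcinoma line, had been placed in the mammary fat pad. The study kept its 4T1 model in female Balb/c mice, and neither section's labels name a strain or genotype. It used the metastatic section to map the tissue around metastases. With 1 section per condition, animal, library, tissue handling and condition cannot be told apart, so every comparison between the sections is a comparison of 2 libraries and carries no p-value. Each spot reads a small region holding several cells, and in such a mixture fewer cells of a type and less RNA per cell cannot be told apart.

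The control section held 1888 spots and 20329126 counts (median 9643.5 per spot), and the metastatic section 1110 spots and 14657881 counts (median 11334.5). Spots under 1000 counts, 27 and 6, were left out, which kept 1861 and 1104. The sections had 858 spot barcodes in common, which come from the array's fixed barcode list and do not mark shared tissue. Each level below is the sum of a gene's counts in a class of spots, scaled to 10000 counts of all genes in those spots (CP10k), with an exact 95% Poisson interval. A ratio of levels carries the exact 95% interval of the split of counts, and all intervals cover counting error only. A gene was called higher or lower in a comparison when its level differed by at least 1.5-fold, with 0.5 counts added on each side, and it had at least 50 counts over the compared spots.

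Spots were classed by marker genes, none of which was a member. Smooth-muscle-rich spots (124 in the control and 28 in the metastatic section) had the smooth muscle list at 48.0 and 33.5 CP10k, against 4.98 and 4.24 in alveolar spots (896 and 364). Airway spots (101 and 86) had the airway list at 60.7 and 51.4 CP10k, against 7.84 and 10.6. Spots that passed both limits (91 and 14) formed a class of their own, and atrial-type cardiac muscle genes marked 119 control spots and no metastatic spot. The tumour marker list picked 5 metastatic spots by the strict rule, and of its 12 genes Krt14, Cldn4 and Hmga1 were at 0 there. A clustering of the spots gave a broader tumour-marker region of 154 spots that held all 5.

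**Figure D1:**
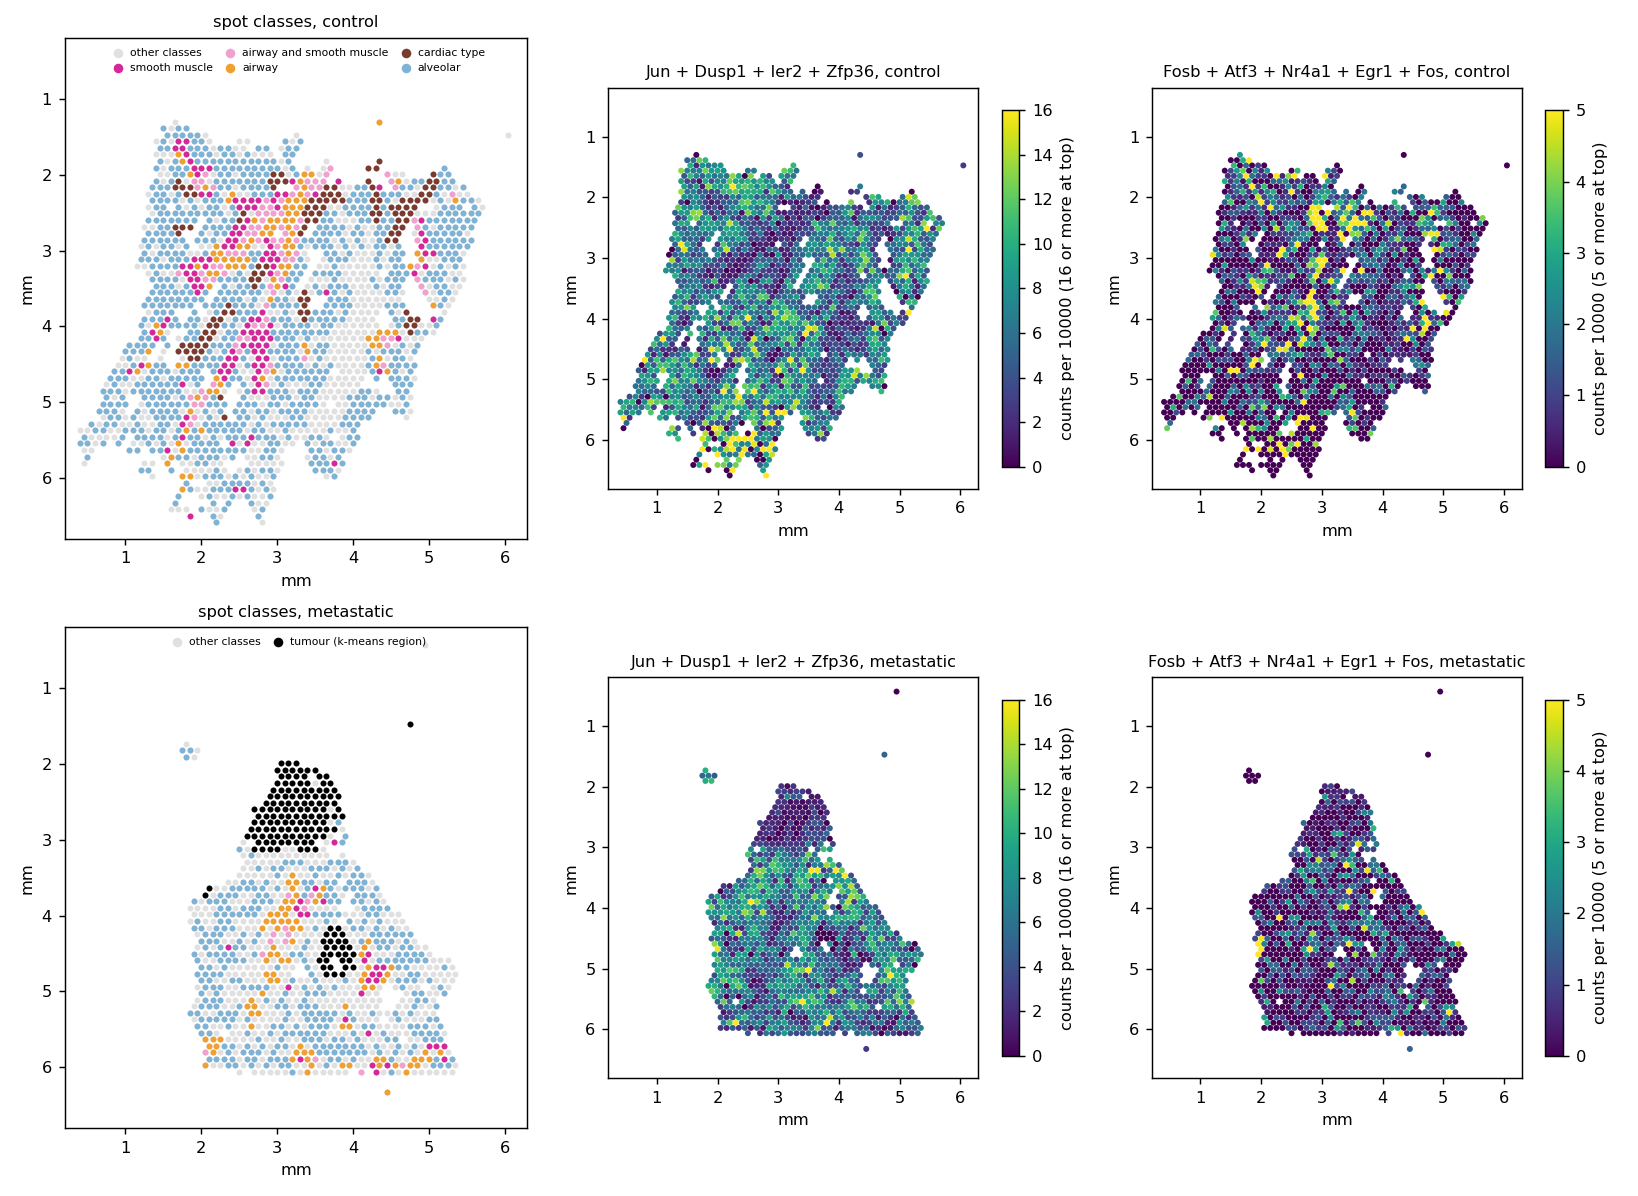
Maps of the control (top) and metastatic (bottom) section, axes in mm, showing the spot classes (left), Jun, Dusp1, Ier2 and Zfp36 summed in CP10k (middle, colour scale topped at 16) and Fosb, Atf3, Nr4a1, Egr1 and Fos summed in CP10k (right, topped at 5). The first set is spread over alveolar tissue and is low in airway and tumour-marker spots, and the second is high along bands of smooth-muscle-rich and cardiac-type spots in the control section; black spots are the broader tumour-marker region.

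The members were found to follow different maps of the tissue. Jun, Dusp1, Ier2 and Zfp36 were highest in the alveolar and B-cell-rich parts of the control section, whereas Nr4a1, Atf3, Fosb, Egr1 and Fos were higher in smooth-muscle-rich than in alveolar spots. Junb stood apart, as the member with the largest difference between the sections. This grouping was made after the values were seen and serves to order the text.

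As examples of both patterns, Nr4a1 and Fosb from the genes higher in smooth-muscle-rich spots and Jun and Dusp1 from the alveolar ones, the 250 bases before a transcript start that RefSeq lists for these 4 genes are shown (GRCm38.p6, 5′ to 3′ on the strand of the gene). They lie at chr15:101266596-101266845 (plus strand), chr7:19310046-19310295, chr4:95052223-95052472 and chr17:26508473-26508722 (minus strand). The genes as GENCODE annotates them lie on mm10 at chr15:101254269-101274795, chr7:19302696-19310051, chr4:95049034-95052222 and chr17:26505590-26562128, where Jun overlaps Junos on the opposite strand and Dusp1 overlaps Ergic1 and Gm8225 on the opposite strand and AC122252.4 and AC122252.1 on its own. GENCODE also holds longer transcripts of Nr4a1 and Dusp1 that start further upstream, so for these genes the window lies inside the annotated span. Capitals mark TGACG on either strand, which is the core of the site that CREB and ATF proteins bind.
Nr4a1: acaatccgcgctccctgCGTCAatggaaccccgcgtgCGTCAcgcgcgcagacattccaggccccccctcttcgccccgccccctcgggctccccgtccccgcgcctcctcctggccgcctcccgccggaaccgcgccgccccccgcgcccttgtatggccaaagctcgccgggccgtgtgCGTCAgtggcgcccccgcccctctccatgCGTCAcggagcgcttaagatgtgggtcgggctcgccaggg
Fosb: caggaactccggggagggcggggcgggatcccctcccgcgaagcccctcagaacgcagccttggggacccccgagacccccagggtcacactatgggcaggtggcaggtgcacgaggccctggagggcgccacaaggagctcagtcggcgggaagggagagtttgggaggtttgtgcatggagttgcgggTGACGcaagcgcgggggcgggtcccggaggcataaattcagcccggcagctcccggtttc
Jun: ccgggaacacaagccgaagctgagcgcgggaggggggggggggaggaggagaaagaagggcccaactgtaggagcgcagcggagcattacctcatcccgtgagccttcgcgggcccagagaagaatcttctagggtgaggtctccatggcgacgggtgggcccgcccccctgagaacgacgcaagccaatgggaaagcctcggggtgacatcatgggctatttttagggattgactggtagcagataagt
Dusp1: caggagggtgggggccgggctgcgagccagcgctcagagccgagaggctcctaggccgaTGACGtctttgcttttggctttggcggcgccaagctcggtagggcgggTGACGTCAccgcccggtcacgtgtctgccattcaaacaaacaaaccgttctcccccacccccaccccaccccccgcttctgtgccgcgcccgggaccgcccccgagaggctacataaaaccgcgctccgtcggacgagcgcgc

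Of the 10 members, 8 had a listed promoter, and Egr1 and Ier2 are named only. TGACG, which is part of the palindrome TGACGTCA, was searched on both strands and occurred in 6 of the 8 (Atf3, Dusp1, Fos, Fosb, Junb and Nr4a1), against 17.8% of 32851 promoters of the same length. Nr4a1 held 4 copies, a number reached by 0.137% of promoters. Dusp1 held 3, as did 0.688% of promoters or more, and 2 of its copies are the strands of 1 full TGACGTCA, found in 1.55%. Jun and Zfp36 held none. The CArG box, the site of serum response factor, occurred in 1.47% of promoters and among the members in Zfp36, as CCATAAAAGG. TGANTCA, the site of AP-1 with N as C or G, occurred in 4.46% and in no member, and TATAAA in 12.4% and in Fos. A match describes the letters of this window and is neither a measured site nor a cause. Of the genes higher in smooth-muscle-rich spots, Nr4a1, Atf3, Fosb and Fos held TGACG, and Egr1 was not listed. Of those high in alveolar spots, Dusp1 held it, Jun and Zfp36 did not, and Ier2 was not listed. A link between the motif and either pattern was not tested.

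The section-wide level was examined first. The 10 genes together gave 14365 counts in the control section and 9790 in the metastatic section, or 7.07 CP10k (6.96 to 7.19) and 6.68 CP10k (6.55 to 6.81). The ratio of metastatic over control was 0.945 (0.920 to 0.969). Jun alone gave 4081 and 2778 of these counts, so the sum mostly follows Jun, Dusp1 and Ier2. Over single genes the median log2 ratio was -0.11, beside -0.07 over the 13789 genes tested. Thinning to 5000 counts used spots with at least that many, 1526 of 1861 control and 1028 of 1104 metastatic ones. The rest were left out, here and wherever thinning is named below. After thinning the ratio of the sum was 1.008, on the other side of 1.

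By gene, 1 of 10 members was called higher in the metastatic section (Junb), where 8.96% of all genes were, and 3 of 10 lower (Nr4a1, Egr1 and Fosb), where 11.8% were. Nr4a1, an orphan nuclear receptor, lay at 0.580 CP10k in the control (1179 counts) and 0.322 in the metastatic section (472 counts), a ratio of 0.555 (0.498 to 0.618). Egr1, a zinc finger transcription factor, lay at 0.253 and 0.152, a ratio of 0.602 (0.512 to 0.706). Fosb, an AP-1 subunit, was sparse, with 117 and 42 counts and a ratio of 0.498 (0.341 to 0.713). The other 6 members, Fos, Jun, Atf3, Dusp1, Ier2 and Zfp36, had ratios between 0.888 and 1.03. The sections also differed in make-up. Smooth-muscle-rich spots, spots with both airway and smooth muscle markers and cardiac-type spots numbered 124, 91 and 119 of 1861 in the control and 28, 14 and 0 of 1104 in the metastatic section, and the part of this in the differences over whole sections was not tested.

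**Figure D2:**
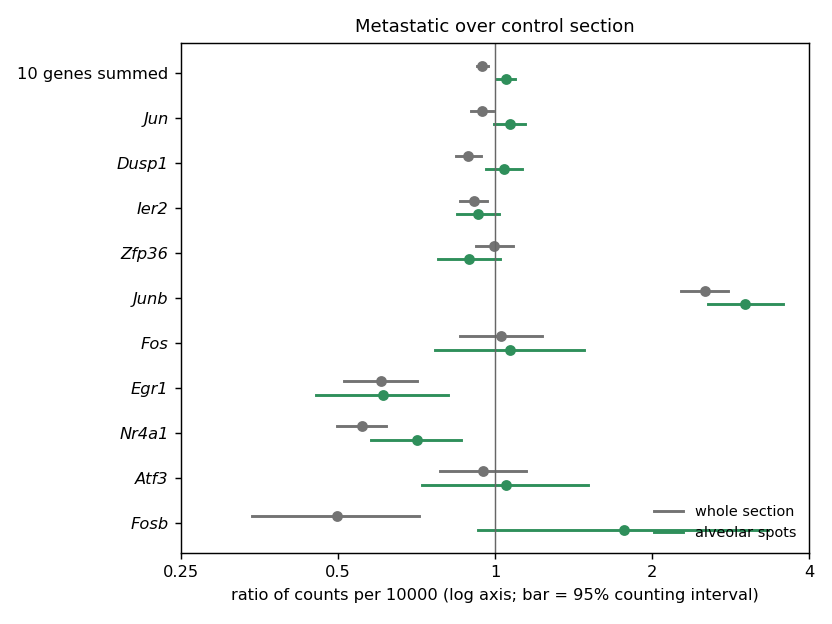
Ratio of the metastatic over the control section for each of the 10 genes, over all spots and over alveolar spots alone (log axis), with 95% counting intervals. Junb lies above 2.5 in both, Nr4a1 and Egr1 lie below 1 in both, and Fosb lies on different sides of 1.

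Like tissue, the alveolar spots, was compared next. The sum was 8.79 CP10k (8.59 to 8.99) in control and 9.21 (8.92 to 9.51) in metastatic alveolar spots, a ratio of 1.05 (1.01 to 1.09). It was 0.975 when alveolar spots were taken without the requirement for alveolar type 1 (AT1) genes. Fos, Jun, Atf3, Dusp1, Ier2 and Zfp36 had ratios between 0.891 and 1.07, a range like that over whole sections. Of 9 members with enough counts, 1 was called higher (Junb; 3.71% of genes) and 1 lower (Egr1; 9.98%). Relative to the median gene Junb was still called (6.27% of genes higher) and Egr1 was not (5.39% lower). With the other definitions of tumour-marker spots, which change the metastatic alveolar set, the same 2 were called, beside 3.53% and 11.2% of genes, and 3.65% and 10.3%. The median over all genes was -0.15 on the log2 scale, beside 0.07 for the members. Within a section the alveolar sum varied little by place. Split by position into upper left, upper right, lower left and lower right, it ran from 8.55 to 9.16 CP10k in the control and from 8.77 to 9.79 in the metastatic section.

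Junb, the AP-1 subunit that opposes or replaces Jun at many of its targets, was higher in the metastatic section in most tissue classes. In alveolar spots it rested on 246 counts in the control and 350 in the metastatic section, levels of 0.283 CP10k (0.249 to 0.321) and 0.854 CP10k (0.767 to 0.948), and a ratio of 3.02 (2.56 to 3.57). A Junb count was present in 22.5% of control and 56.3% of metastatic alveolar spots, and in 14.5% and 30.3% after thinning to 5000 counts. Split into 4 parts by position as above, Junb ran from 0.277 to 0.293 CP10k in the control and from 0.611 to 0.996 in the metastatic section. The parts are cuts of 1 section each, are not replicates and do not match in place between the lungs.

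Across the other classes the ratio of Junb was 3.70 (2.40 to 5.75) in mesothelial spots, where 16.7% of genes were called higher. In B-cell-rich spots it was 3.48 (2.07 to 5.95), beside 14.8% of genes higher. Where airway and smooth muscle markers met it was 2.80 (1.56 to 4.87; 12.2%), and in airway spots 1.96 (1.32 to 2.94; 13.3%). Smooth-muscle-rich spots differed from these, with 0.393 CP10k (46 counts) in the control and 0.409 (14 counts) in the metastatic section, a ratio of 1.04 (0.529 to 1.93). Dusp1 (1.77; 1.33 to 2.33) and Ier2 (1.65; 1.21 to 2.23) had larger ratios there, as did Jun (2.15) and Dusp1 (2.19) in airway spots. Junb lies at chr8:84974484-84978718 and overlaps Prdx2 on the opposite strand.

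Markers of other cells moved with Junb between the sections. In alveolar spots the neutrophil list (7 genes) lay at 2.84 CP10k in the control (spot values 0 to 41.5) and 35.7 in the metastatic section (5.19 to 202), with no gene of the list at 0 in either. The red blood cell list lay at 215 and 579 CP10k, the alveolar type 2 (AT2) list at 387 and 246 and the AT1 list at 79.1 and 62.5. Their part in the Junb difference was not tested. Among the 364 metastatic alveolar spots the correlation of Junb with the neutrophil list was 0.10, beside 0.12 with the macrophage and 0.12 with the capillary endothelium list. Over all 1104 metastatic spots it was 0.18 with the neutrophil list, beside 0.22 with the fibroblast and 0.20 with the capillary endothelium list. These correlations compare spots within the metastatic section, so they do not address the difference in Junb between the sections. The spots also share library, depth and neighbours.

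Nr4a1 and Egr1 were lower in metastatic alveolar spots as well. Nr4a1 lay at 0.463 CP10k (402 counts) in the control and 0.327 (134 counts) in the metastatic section, a ratio of 0.707 (0.577 to 0.861). Egr1 lay at 0.252 (219 counts) and 0.154 (63 counts), a ratio of 0.610 (0.453 to 0.811). Nr4a1 was also low in mesothelial spots of the metastatic section (0.152 against 0.541 CP10k; 6 and 58 counts). Its level in smooth-muscle-rich spots was 1.36 in the control and 0.993 in the metastatic section, a ratio of 0.732 (0.490 to 1.06), whose interval includes 1. Fosb, with 24 and 20 alveolar counts, had a ratio of 1.77 (0.926 to 3.34) and was under the count minimum.

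**Figure D3:**
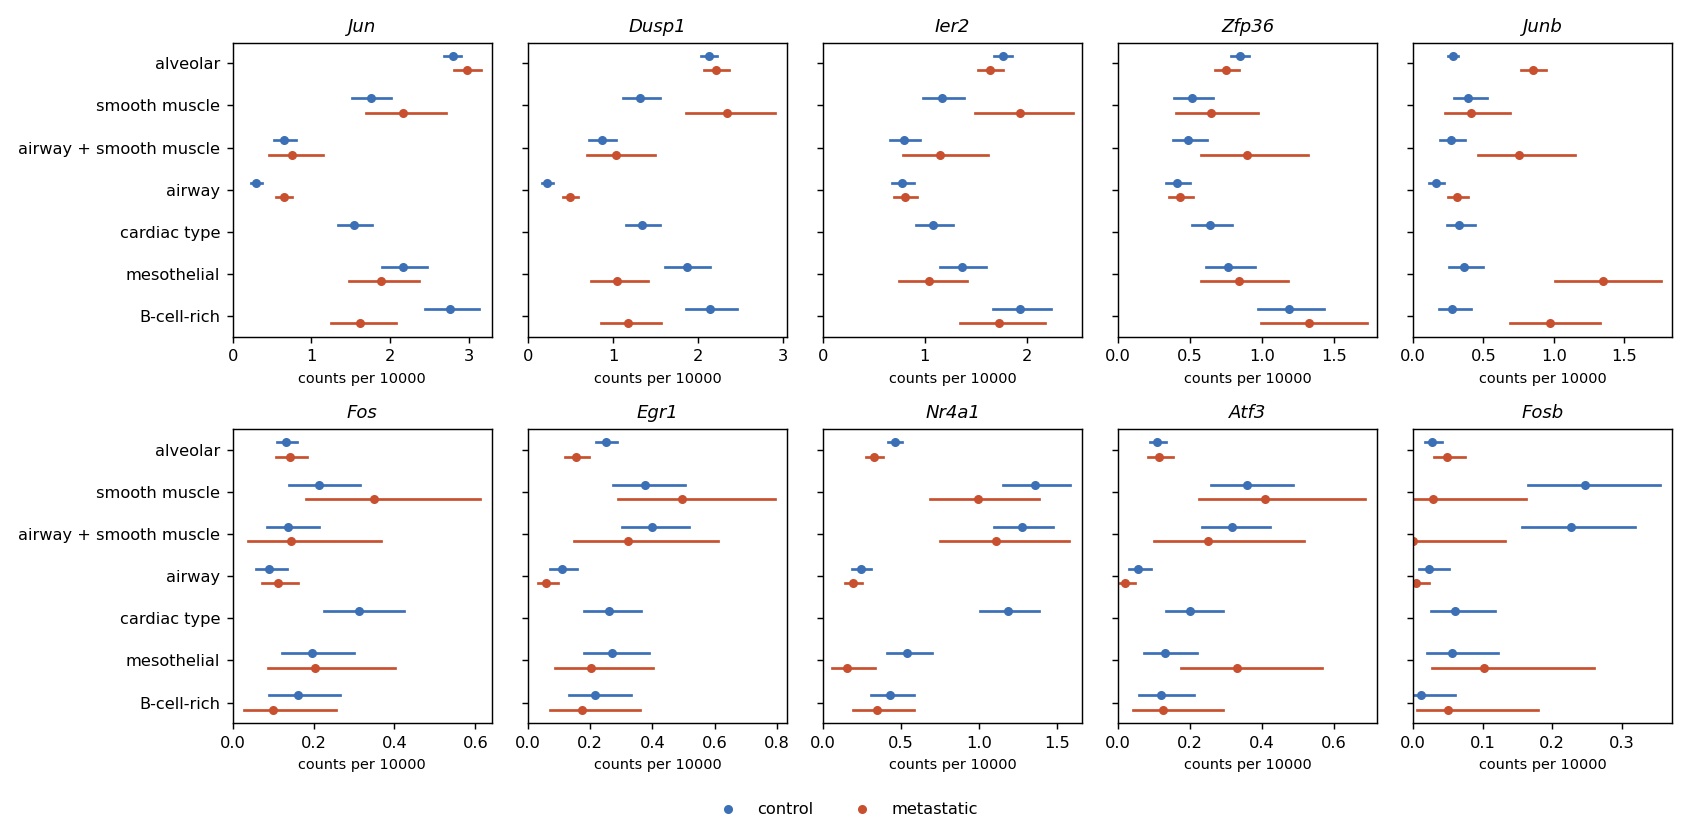
Level of each of the 10 genes in CP10k (panels) by spot class in the control and the metastatic section, with 95% counting intervals. Jun and Dusp1 drop from alveolar to airway spots, Nr4a1, Atf3 and control Fosb peak where smooth muscle markers are high, and Junb is higher in the metastatic section in most classes.

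Next, the smooth-muscle-rich spots were set against the alveolar spots of the same section, so that both sides came from 1 library and 1 handling. In the control section 5 of 10 members were called higher (Fosb, Atf3, Nr4a1, Fos and Egr1), where 6.42% of genes were. Egr1, at a ratio of 1.49, reached the limit only with the added 0.5 counts. Another 4 were called lower (Jun, Dusp1, Ier2 and Zfp36), where 30.8% were. The median gene was lower by 0.36 on the log2 scale in smooth-muscle-rich spots, and relative to that median 6 members were higher (13.4% of genes) and none lower (11.9%). The sum went from 8.79 CP10k in alveolar to 7.70 in smooth-muscle-rich spots, a ratio of 0.876 (0.817 to 0.939), and this ratio was 1.026 when haemoglobin, mitochondrial, surfactant, secretoglobin and immunoglobulin genes were left out of the library size.

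Nr4a1 carried the most counts of the members that were higher. It lay at 0.463 CP10k (0.418 to 0.510) in control alveolar spots and at 1.36 CP10k (1.15 to 1.59) in smooth-muscle-rich spots, a ratio of 2.93 (2.43 to 3.53). A Nr4a1 count was present in 32.9% of the alveolar and 58.1% of the smooth-muscle-rich spots, and in 19.8% and 46.2% after thinning. The metastatic levels were 0.327 and 0.993 CP10k and the ratio 3.04 (2.02 to 4.45). The control spots with both airway and smooth muscle markers, at 1.27 CP10k (1.1 to 1.47), and the cardiac-type spots, at 1.18 (1.01 to 1.38), were not separated from the smooth-muscle-rich spots by their intervals. Airway spots without smooth muscle markers lay lowest, at 0.243. The highest control spot held 29 Nr4a1 counts.

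Atf3, a stress-induced member of the ATF/CREB family, followed the same order in the control section. It had 95 counts in 896 control alveolar spots and 42 in 124 smooth-muscle-rich spots, 0.109 and 0.358 CP10k, a ratio of 3.28 (2.22 to 4.76). Metastatic Atf3 had 47 and 14 counts, 0.115 and 0.409 CP10k, a ratio of 3.57 (1.81 to 6.59). Without spots at the tissue border the metastatic ratio was 2.27. Metastatic mesothelial spots were also high in Atf3, at a ratio to alveolar spots of 2.88 (1.43 to 5.41) on 13 counts. There 19.1% of genes were called higher, and Nr4a1 had a ratio of 0.466 (0.168 to 1.04).

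Fosb was higher in smooth-muscle-rich spots in the control section, and its counts were too few to separate these classes in the metastatic section. It had 24 counts in 23 of 896 control alveolar spots and 29 counts in 15 of 124 smooth-muscle-rich spots, a ratio of 8.96 (5.04 to 16.1). Without the 1% of spots with the highest member levels this ratio was 6.22. The spots with both airway and smooth muscle markers held another 33 counts in 23 of 91 spots (0.227 CP10k), beside 0.0235 in airway spots. Metastatic Fosb had 20 counts in 364 alveolar spots and 1 count in 28 smooth-muscle-rich spots, a ratio of 0.598 (0.0144 to 3.74). Between the sections, Fosb in smooth-muscle-rich spots had a ratio of 0.118 (0.00289 to 0.711). It was also listed at 0 in the 14 metastatic spots with both kinds of marker, against 33 counts in the control, with an upper limit of the interval of 0.614. Of all Fosb counts 38.5% in the control and 42.9% in the metastatic section lay in the top 1% of spots.

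Egr1 and Fos were higher in smooth-muscle-rich spots in both sections, by less in the control. Egr1 had ratios of 1.49 (1.05 to 2.07) in the control and 3.23 (1.77 to 5.59) in the metastatic section, the latter on 17 counts in 28 spots, and after thinning 1.92. Fos, the partner of Jun in AP-1, had ratios of 1.61 (1.00 to 2.50) and 2.48 (1.21 to 4.66). Thinning to 5000 counts brought the control value for Fos to 1.24, under the limit for a call. Fos was also high in cardiac-type spots, at 0.313 CP10k (0.226 to 0.423) against 0.132 (0.109 to 0.159) in control alveolar spots.

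In the metastatic section 4 of the 9 members with enough counts were called higher in smooth-muscle-rich spots (Fos, Egr1, Atf3 and Nr4a1), where 8.31% of genes were. Only Junb was called lower, at a ratio of 0.479 (0.259 to 0.814), where 20% of genes were. After thinning the ratio of Junb was 0.88. The sum was 9.21 CP10k in alveolar and 9.75 in smooth-muscle-rich spots, a ratio of 1.06 (0.944 to 1.18). The metastatic section had 28 smooth-muscle-rich spots against 124 in the control, and its interval for each gene is wider for that reason.

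The members that were high in alveolar tissue had lower levels in control smooth-muscle-rich spots. Jun lay at 2.79 CP10k in control alveolar and 1.75 in smooth-muscle-rich spots, a ratio of 0.627 (0.541 to 0.723). Dusp1, the phosphatase that switches MAP kinases off, had a ratio of 0.623 (0.525 to 0.734). Zfp36 (tristetraprolin), which binds AU-rich elements and speeds the decay of the messages that carry them, had a ratio of 0.607 (0.459 to 0.791), and Ier2 one of 0.663 (0.552 to 0.790). All 4 were short of a call when measured against the median of all genes. In the metastatic section Jun remained lower, at 0.727 (0.567 to 0.919), while the ratios of Dusp1 (1.06), Ier2 (1.18) and Zfp36 (0.855) had intervals that included 1.

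**Figure D4:**
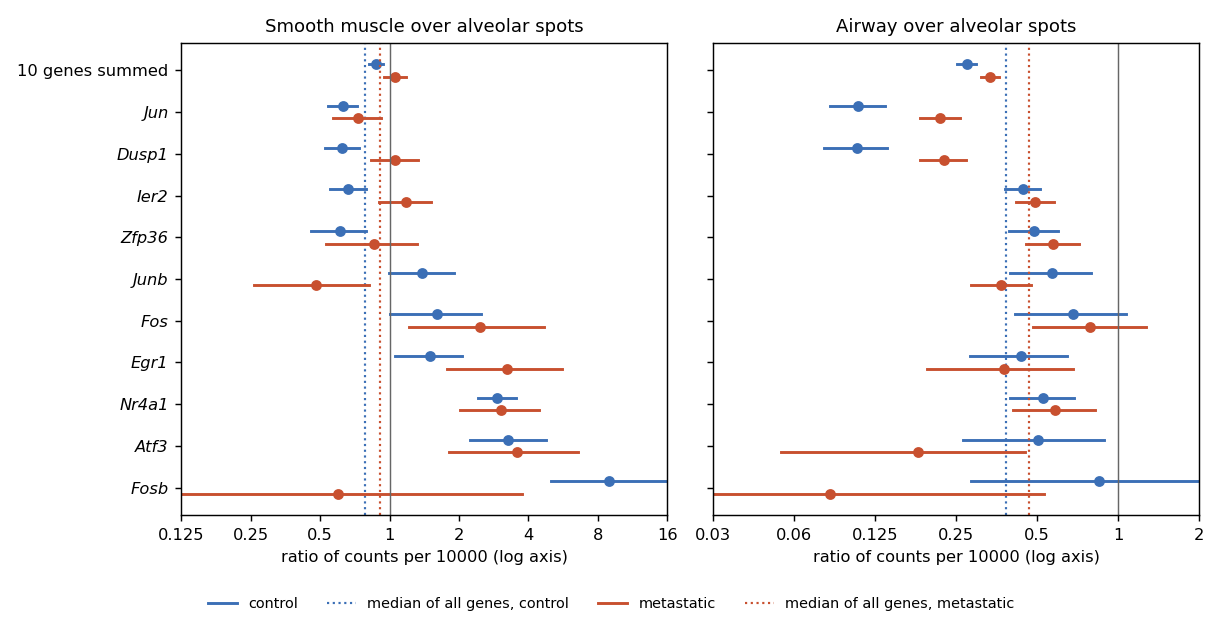
Ratio of smooth-muscle-rich over alveolar spots and of airway over alveolar spots for each of the 10 genes in both sections (log axis), with 95% counting intervals and a dotted line at the median of all genes. Nr4a1 and Atf3 lie near 3-fold in smooth-muscle-rich spots of both sections, and Fosb lies at 8.96 in the control section. Jun and Dusp1 lie lowest in control airway spots.

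Airway spots had the lowest levels of the members among the normal classes. The sum was 2.40 CP10k (2.21 to 2.60) in control and 3.08 (2.86 to 3.31) in metastatic airway spots, ratios to alveolar spots of 0.273 (0.251 to 0.296) and 0.334 (0.308 to 0.362). In each section 8 of 9 members were called lower and none higher, but so were 82.7% and 80.8% of all genes lower, with 5.2% and 3.57% higher. Scgb1a1, the secretory protein of club cells, made up 55.6% and 54.7% of all counts in airway spots against 4.95% and 7.85% in alveolar spots, and this enters the total by which each level is divided. Without the abundant genes in the total, the ratios of the sum were 0.602 and 0.652.

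In control airway spots Jun and Dusp1 lay below the median gene, and the other 8 members lay above it. In the control section Jun went from 2.79 to 0.301 CP10k, a ratio of 0.108 (0.0849 to 0.135), and Dusp1 from 2.12 to 0.227, a ratio of 0.107 (0.0808 to 0.139). Relative to the median gene these were the 2 of 9 members called lower, a share near that of all genes (24.7%). In the metastatic section they had ratios of 0.218 (0.184 to 0.258) and 0.224 (0.184 to 0.272), and with Atf3 (0.180; 5 counts in airway spots) they were the 3 called lower relative to the median (19.4%). Without the abundant genes in the total they were still at 0.238 and 0.235 in the control and 0.425 and 0.438 in the metastatic section, while Ier2 stood at 0.973 and 0.960. On that scale Zfp36 (1.07 and 1.12), Nr4a1 (1.16 and 1.13) and, in the control, Junb (1.25) and Atf3 (1.104) lay above 1, each with an interval that included 1.

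Between the sections, Jun and Dusp1 in airway spots were higher in the metastatic one. Jun lay at 0.301 and 0.649 CP10k, a ratio of 2.15 (1.63 to 2.87), and Dusp1 at 0.227 and 0.496, a ratio of 2.19 (1.58 to 3.04), where 13.3% of genes were called higher and 7.32% lower. The lists for capillary endothelium (3.23 and 6.78 CP10k) and AT1 cells (9.13 and 13.2) also were higher in metastatic airway spots, and their part in these differences was not tested.

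Over all spots Jun and Dusp1 correlated with the lists of alveolar cells. The correlation of Jun with the capillary endothelium list was 0.54 in 1861 control and 0.63 in 1104 metastatic spots, and with the AT1 list 0.47 and 0.56. That of Dusp1 with the AT1 list was 0.42 and 0.52. The values were lower for Ier2 (0.29 in both) and for Zfp36 (0.21 and 0.11), and metastatic Zfp36 correlated with the macrophage (0.16), neutrophil (0.15) and B cell (0.15) lists at least as much. By contrast Nr4a1 correlated with the smooth muscle list at 0.48 and 0.33, Atf3 at 0.29 and 0.21, and Fosb at 0.29 and 0.02. Among members the highest value over the 45 pairs was that of Jun with Dusp1, at 0.32 and 0.40 over all spots, and within alveolar spots it was 0.15 and 0.10. These values describe spots that share library, depth and neighbours.

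Jun, the member with the most counts, also had the highest Moran's I, a measure of how alike adjacent spots are. It was 0.22 for Jun in the control and 0.33 in the metastatic section, above 90.3% of 6068 and 89.6% of 4500 ranked genes. Only genes with at least 500 counts in a section were ranked, and genes were not matched for counts. Moran's I was 0.16 and 0.26 for Dusp1, 0.12 and 0.11 for Nr4a1, and 0.13 and 0.04 for Fosb, on 117 and 42 counts. Junb lay at 0.02 and 0.07, above 14.0% and 44.9% of ranked genes, with medians over all ranked genes of 0.05 and 0.08. In the metastatic section it still differed by class, with ratios to alveolar spots of 0.368 (0.283 to 0.472) in airway and 1.58 (1.16 to 2.11) in mesothelial spots.

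The tumour-marker spots were low in the sum of the members. In the 5 spots of the strict rule the 10 genes had 29 counts, or 2.27 CP10k (1.52 to 3.27), against 9.21 in alveolar spots, a ratio of 0.247 (0.165 to 0.355). Of 8 members with enough counts 7 were called lower, where 35.6% of genes were, and none higher (28.7%), but of the 7 the intervals of Fos, Egr1, Ier2 and Nr4a1 included 1, which leaves Jun, Dusp1 and Zfp36. Fos, Fosb, Egr1 and Atf3 were at 0 there, which allows up to 0.235 CP10k (3 counts over the 5 spots) and so does not separate any of the 4 from its alveolar level. The single genes were therefore read in the broader region.

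In the tumour-marker region of 154 spots the sum was 3.74 CP10k (3.51 to 3.99) against 9.25 in 336 alveolar spots, a ratio of 0.405 (0.376 to 0.435). Dusp1 differed most, with 74 counts and 0.299 CP10k against 844 counts and 2.24, a ratio of 0.133 (0.104 to 0.169). Jun lay at 0.623 against 3.0, a ratio of 0.207 (0.174 to 0.246). Nr4a1 (0.374; 0.244 to 0.558) and Ier2 (0.539; 0.460 to 0.630) were the other 2 of the 4 members called lower, where 26.8% of genes were. Junb, at 0.756 (0.620 to 0.918), did not reach the limit, and Zfp36 (0.869), Fos (0.958) and Egr1 (1.13) had intervals that included 1.

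Atf3 was the 1 member called higher in this region, where 28.1% of genes were. It had 54 counts and 0.218 CP10k (0.164 to 0.285) there against 42 counts and 0.112 in alveolar spots, a ratio of 1.96 (1.28 to 3.0). In another definition of 70 spots, from marker scores summed over adjacent spots and chosen after the data were seen, the ratio was 2.28 (1.44 to 3.57). Of those 70 spots 67 lay in the broader region. There Dusp1 stood at 0.153, Jun at 0.225, Nr4a1 at 0.313 and Ier2 at 0.559, and 4 members were called lower (29.2% of genes) and 1 higher (26.5%). AT1 and capillary endothelium genes, with which Jun and Dusp1 correlated over spots, were low in the strict margin and tumour-marker spots (AT1 list 3.30 and 1.18 CP10k against 62.5 in alveolar spots), and their part in these ratios was not tested.

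**Figure D5:**
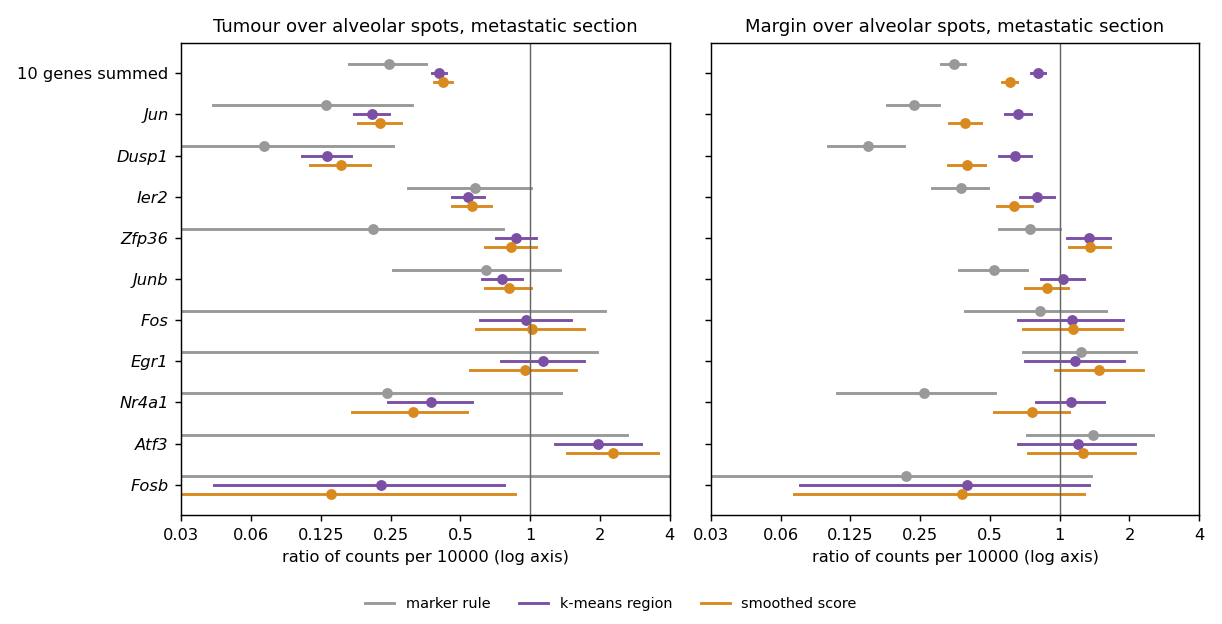
Ratio of tumour-marker spots and of the margin within 200 µm over alveolar spots for each of the 10 genes in the metastatic section, under 3 definitions of the tumour-marker spots (log axis), with 95% counting intervals. Dusp1 and Jun are low in the tumour-marker spots under each definition, and Atf3 is above 1 in both larger definitions.

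At the margin, within 200 µm of tumour-marker spots, the values depended on the definition. Under the strict rule the sum was 3.21 CP10k, a ratio to alveolar spots of 0.349 (0.309 to 0.392), and 5 of 9 members were called lower (31.5% of genes) and none higher (25.3%), but 42 of these 43 spots belong to the broader tumour-marker region. Around the broader region the sum was 7.45 CP10k over 103 spots, a ratio of 0.805 (0.751 to 0.863), with Jun and Dusp1 the 2 called lower (0.662 and 0.642; 9.85% of genes) and none higher (8.76%). With the summed marker scores Jun, Dusp1 and Ier2 were called lower (0.392, 0.397 and 0.637; 20.3% of genes) and none higher (22.5%). Zfp36 lay above alveolar spots there, at 0.966 against 0.725 CP10k, a ratio of 1.33 (1.08 to 1.64), and at 1.35 (1.1 to 1.64) with the summed marker scores, short of a call in both. Under the strict rule its ratio was 0.748 (0.548 to 1.00).

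In alveolar spots themselves the sum of the members was somewhat higher nearer to the broader region. The sum was 10.5 CP10k (9.53 to 11.4) at over 200 to 400 µm (38 spots), 9.65 (9.08 to 10.2) at over 400 to 700 µm (107 spots) and 8.81 (8.42 to 9.21) beyond 700 µm (191 spots). Ier2 went the same way, with 2.05, 1.81 and 1.47 CP10k, and Dusp1 had 2.54, 2.48 and 2.06. Jun had 3.24, 3.15 and 2.88, with intervals that overlapped. Fos (0.088, 0.181 and 0.136) and Egr1 (0.154, 0.100 and 0.186) were not highest nearest to the region. The share of all genes with such a gradient is not given here, so it is not a trait of the members alone. Junb had 0.904, 0.852 and 0.820, with intervals that overlapped, and so was higher than its control alveolar level of 0.283 at every distance.

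The tissue border was checked because handling can act on the cut edge. In the control section spots with fewer than 6 neighbours had 7.17 CP10k of the sum and interior spots 7.04, a ratio of 1.02 (0.980 to 1.06), and no member was called (1.52% of genes higher, 1.83% lower). The metastatic ratio was 0.937 (0.889 to 0.988). There Atf3 (1.71; 1.21 to 2.36) and Egr1 (1.58; 1.15 to 2.14) were called higher at the edge, where 8.43% of genes were, and Nr4a1 (0.642; 0.480 to 0.845) lower, where 5.14% were. Fosl1, a gene of the tumour-marker region, was also higher at that edge (2.30; 1.54 to 3.40).

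The wider early response was read from 39 other immediate early genes. Between the sections 6 of the 37 with enough counts were higher in the metastatic one (8.96% of all genes) and 4 lower (11.8%). The 3 that differed most were Fosl1, the AP-1 subunit Fra-1, with 121 counts against 0 (at least 55.9-fold higher when 3 counts are taken for the control section, with a lower limit of the exact interval of 44.8), Myc, with 949 against 74 (17.8; 14.0 to 22.8), and Socs3, the feedback inhibitor of IL-6 family signalling, with 849 against 353 (3.33; 2.94 to 3.78). In alveolar spots 3 of 32 were higher (3.71% of all genes) and 2 lower (9.98%), with Myc at 5.73 (3.64 to 9.27), Socs3 at 3.56 (2.97 to 4.29) and Klf2, an endothelial factor induced by flow, at 0.626 (0.598 to 0.655).

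The smooth-muscle-rich spots were read in the same way. In the control section none of 31 other early genes was higher (6.42% of all genes) and 7 were lower (30.8%), and the 3 named by size were Dusp6 (0.420; 0.304 to 0.568), Ier3 (0.423; 0.366 to 0.486) and Nfkbia (0.545; 0.448 to 0.658). In the metastatic section 5 of 30 were higher (8.31%) and 3 lower (20%), with Ccn2, a matrix protein gene that answers to stretch, at 2.47 (2.03 to 2.98) and Socs3 at 0.454 (0.232 to 0.805), while Dusp5 had 0 counts there and 55 in alveolar spots. In airway spots 30 of 32 and 29 of 30 were lower, beside the shares over all genes given above. In the broader tumour-marker region 5 of 32 were higher (28.1% of all genes) and 16 lower (26.8%), with Myc at 16.2 (12.5 to 21.4), Fosl1 at 14.6 (7.61 to 31.4) and Klf4 at 0.134 (0.0980 to 0.179).

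Among 17 genes that regulate the early response, Srf, which encodes serum response factor, had ratios of smooth-muscle-rich over alveolar spots of 1.66 (0.919 to 2.83) in the control and 1.06 (0.278 to 2.92) in the metastatic section, on 17 and 4 counts. In control smooth-muscle-rich spots 2 of the 17 were higher (6.42% of all genes) and 6 lower (30.8%), with Batf3 at 2.85 (1.46 to 5.29), Mapk8 at 0.433 (0.183 to 0.878) and Elk4 at 0.544 (0.411 to 0.710). In alveolar spots none was higher in the metastatic section (3.71%) and 2 were lower (9.98%), Elk1 (0.615; 0.392 to 0.938) and Mapk3 (0.657; 0.622 to 0.694).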

How the data were processed

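The deposited tables of 2 Visium sections held raw UMI counts, which the authors obtained with Space Ranger 1.3.1 on mm10 per the labels and left without normalization. Scale factors and the authors' own regions were not used. Spots with at least 1000 counts were kept. Spot classes came from marker scores (mean of log1p CP10k): the top 10% of spots over both sections for smooth muscle and airway, the top 5% for B cells and mesothelium, a cardiac score of at least 2, and for alveolar spots none of these and an AT1 score at or above the median. Tumour-marker spots had a score above the 99.9th percentile of control spots and at least 2 neighbours likewise; k-means (5 clusters, 2000 genes, 20 components) gave the broader region. Log2 ratios used a pseudocount of 0.5. The median spot held about 10000 counts, so a gene at 1 CP10k has about 1 count per spot, and levels were read from sums. The members and lists were chosen with earlier results of these data known. Other genes were named as the 3 of each list with the largest ratio in a comparison, and the 10 genes most like the members' mean, of which 1 is not reported here. Promoters and their motifs came from RefSeq tables. Scripts were tested on simulated data. Tables were handled in Python 3.11.15 with pandas 2.3.3 and numpy 2.4.6, intervals came from scipy 1.17.1, clusters from scikit-learn 1.9.0, and figures from matplotlib 3.10.9.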

Additional observations from a re-analysis of the deposited data

Results flagged for a closer look

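For 7 ratios the control and the metastatic section lay on different sides of 1, with counting intervals that did not overlap. The differences between the sections were not tested, since each condition had 1 section. The share of all genes that meet the same rule is not given here, so these ratios do not set the members apart from other genes. Between smooth-muscle-rich and alveolar spots, the sum of the 10 genes had a ratio of 1.059 in the metastatic section and 0.876 in the control. On the same comparison Fosb had 0.598 and 8.96, with 1 count in the metastatic smooth-muscle-rich spots. Junb had 0.479 and 1.39, and its level in smooth-muscle-rich spots was 0.409 and 0.393 CP10k, while its alveolar level was 0.854 and 0.283. Dusp1 had 1.057 and 0.623, and Ier2 1.177 and 0.663. Between spots at the tissue edge and interior spots, Atf3 had 1.706 in the metastatic and 0.791 in the control section, and Ier2 had 0.830 and 1.05.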

How the results depend on the processing

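No paired analysis was possible because each condition had 1 section. Over the comparisons of the summed level, 49 of the recomputed values moved by less than their counting interval, 25 moved beyond it, 2 of them under a definition of tumour-marker spots added after seeing the data, and 3 changed direction from a value whose interval excluded 1; among single genes 684 held, 95 moved and 11 changed direction. The causes were not tested unless named here. Leaving haemoglobin, mitochondrial, surfactant, secretoglobin and immunoglobulin genes out of the library size changed the direction of smooth muscle over alveolar in the control (1.026) and gave 1.120 for alveolar spots between sections, 0.602 and 0.652 for airway over alveolar in control and metastatic, 0.293 for the strict margin, and 0.974 and 0.840 for edge over interior. With it Junb (1.25), Atf3 (1.104), Zfp36 (1.07) and Nr4a1 (1.16) changed direction in control airway spots, and Zfp36 (1.12) and Nr4a1 (1.13) in metastatic airway spots. Thinning to 5000 counts changed the whole section (1.008), with Jun at 1.02 and Ier2 at 1.05, and Jun at the control edge (0.999); it gave 0.392 for metastatic airway, 0.414 for the strict margin and 0.935 for the control edge, which had been 1.02 with an interval that included 1 and lay below 1 under both of these settings. Means over spots gave 0.396 and 0.424 for airway over alveolar. Taking the top 5% of spots gave 0.25 and 0.304 for airway, and the top 20% gave 0.379 and 0.479 and, for smooth muscle in the control, 0.977. Alveolar spots without the AT1 requirement changed the direction between sections (0.975) and gave 0.961 and 1.249 for smooth muscle, 0.299 and 0.394 for airway and 0.411 for the strict margin. The broader tumour-marker region gave 0.405 for tumour-marker spots and 0.805 for the margin, where Junb (1.03) and Nr4a1 (1.12) changed direction, and the summed marker score gave 0.421 and 0.610. In depth, a gene with few counts such as Fosb is read from few counts even in sums, and its metastatic ratio of smooth-muscle-rich over alveolar spots rests on 1 count in the former, as does that of airway spots (0.0847; 0.00204 to 0.529). With 1 section per condition, no spread between animals was measured for any value, and counting intervals do not hold it.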

Other observations

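Heat shock genes, which also respond to handling, were read beside the members (10 genes). Hspa1a, an inducible Hsp70, followed smooth muscle: smooth-muscle-rich over alveolar spots it had a ratio of 6.71 (4.61 to 9.76) in the control on 57 and 63 counts, and 3.53 (2.29 to 5.32) in the metastatic section on 31 and 105 counts. Its neighbour Hspa1b, which shares near-identical sequence, had ratios of 2.56 (1.72 to 3.74) and 1.68 (0.948 to 2.81). In metastatic over control alveolar spots the same genes had ratios of 3.53 (2.56 to 4.91) and 2.33 (1.79 to 3.05). The sum of the heat shock list had a ratio of 1.06 (1.03 to 1.09) there, beside 1.05 for the sum of the immediate early genes. In that comparison 3 of the 10 heat shock genes were higher (3.71% of all genes) and none lower (9.98%). The list as a whole had 5 of 10 genes higher (8.96% of all genes) and none lower (11.8%) over whole sections. In the broader tumour-marker region its sum was 46.1 CP10k against 20.3 in alveolar spots (2.27; 2.21 to 2.34), led by Hspe1 (6.91) and Hspd1 (5.14), the chaperonins of mitochondria, while Hspa1a was not among the 3 named there.

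The broader tumour-marker region fell into 2 connected parts of at least 10 spots, a split made after seeing the data and given as a description. The larger part (122 spots) had a member sum of 3.55 CP10k and the smaller (29 spots) 6.29, a ratio of 1.77 (1.44 to 2.16). Ier2 lay at 0.809 and 1.93 CP10k, Zfp36 at 0.589 and 1.19, and Atf3 at 0.198 and 0.510. Jun (0.611 and 0.794) and Dusp1 (0.303 and 0.227) had intervals of the ratio that included 1. The macrophage list lay at 51.9 and 90.1 CP10k, the T and NK cell list at 1.87 and 6.01 and the B cell list at 0.937 and 3.97. The tumour marker list lay at 11.5 and 10.0, with no count of Krt14 in the larger part and none of Krt14, Cldn4 and Hmga1 in the smaller. Spots held 18639 counts on average in the larger and 6082 in the smaller part. The part of cell lists and depth in the difference was not tested.

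Among 4408 genes with enough counts in both sections, those whose pattern over spots was most like the mean of the members included Myl6 (correlation 0.39 in the control and 0.44 in the metastatic section), Ltbp4 (0.37 and 0.48), Actg1, Bgn, Flna, Csrp1, Igfbp7, Ccn1 and H2-D1. The smaller of both correlations lay between 0.33 and 0.39 for these genes, over 1861 and 1104 spots that share library, depth and neighbours.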
